A study of Homo sapiens with 11 samples.

Results

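MOLM-13 cells treated for 72 h with 1 µM MI-503 and 100 nM PR-957 (ONX-0914) together, called the combination here, were compared with MOLM-13 cells kept for 72 h in the diluent DMSO. MOLM-13 is a human acute myeloid leukemia (AML) line that carries a KMT2A::MLLT3 fusion and an internal tandem duplication of FLT3. MI-503 blocks the contact between Menin and KMT2A, and PR-957 inhibits PSMB8, a catalytic subunit of the immunoproteasome. The comparison took its members by treatment label and holds 7 of the 11 RNA-seq libraries of the series, namely 4 of DMSO (replicates 1 to 4) and 3 of the combination (replicates 1, 2 and 4). The other 4 libraries came from cells in 1 µM MI-503 for 72 h. All cells had been grown in RPMI with fetal bovine serum. Cells with PR-957 alone were not analysed here, so the combination against DMSO reads both compounds at once, and the combination against MI-503 reads PR-957 on top of MI-503. One cell line was used, and the labels do not say that replicates were separate cultures, so p-values measure the spread between these libraries, which may be technical.

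Menin tethers KMT2A and its fusions to chromatin, where they keep homeobox genes and other stem cell genes switched on, and loss of that contact lets KMT2A-rearranged blasts move toward monocytes. The proteasome is a barrel (the 20S core) with a cap (the 19S particle) that unfolds and cuts ubiquitin-tagged proteins, and immune cells can swap its catalytic subunits for PSMB8, PSMB9 and PSMB10. When proteasome activity drops, cells are known to process the transcription factor NFE2L1, which then raises proteasome subunit genes through antioxidant response elements, and NFE2L2 (NRF2), a close relative, acts on similar sites in genes of redox defense. The autophagy and lysosome pathway, driven in part by TFEB and TFE3, is the other main route of protein breakdown. Because the libraries hold RNA of whole cultures, more RNA per cell and more cells of one state cannot be told apart.

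Values below are CPM, the fragments of a gene per M fragments counted, after TMM scaling of library sizes. A change is the log2 ratio of the combination to DMSO fitted with edgeR's quasi-likelihood model over all 11 libraries, with its standard error (SE) and a p-value adjusted over the 14683 genes that passed a filter on low counts. Genes with an adjusted p under 0.05 are named called. Counted fragments ran from 21.6 to 31.0 M in DMSO and from 18.9 to 41.2 M in the combination. CD33, a surface marker of myeloid cells, lay between 34.2 and 40.2 CPM in all 7 libraries, 8 of 10 myeloid leukemia markers reached 1 CPM, and none of the 5 T cell markers in the table or the 6 erythroid markers did. HBB was at 0 CPM, CD3E at no more than 0.0919 CPM and EPCAM at no more than 0.0372 CPM in each of these libraries, while 3 of 5 B cell markers reached 1 CPM. Summed, the B cell markers ran from 49.0 to 51.6 CPM in DMSO and from 24.1 to 27.8 CPM in the combination. The 5 epithelial markers together ran from 37.7 to 44.9 CPM and from 24.6 to 35.2 CPM. The 10 myeloid leukemia markers together ran from 1769 to 1801 CPM and from 1926 to 3863 CPM. Only 4 of these 10 were called higher and 2 were called lower, with a median log2 change of 0.17. LYZ, described below, had the largest rise among them (4.11), so the sum does not show that myeloid markers rose together. The 4 megakaryocyte markers together ran from 0.911 to 1.47 CPM in DMSO and from 0.283 to 0.502 CPM in the combination, where both tested members were called lower. The 6 fibroblast and endothelial markers ran from 0.142 to 0.643 CPM and from 0.781 to 1.18 CPM, and their 1 tested member was called higher. The part of these shifts in other results was not tested. Combination replicate 1 stood apart. Chi-square divided by degrees of freedom was 19.4 between its counts and those of replicate 2 and 33.3 for replicate 4, against 4.59 between replicates 2 and 4 and no more than 5.97 within DMSO. It was also the deepest library, and many values below are also given without it. Leaving it out moved no count of called members of a gene group below by more than 2. Fragments that fell on exons of more than 1 gene or mapped to several places had been left out of the counts, so genes that share exon bases with another gene are partly counted, among them PSMC1 (61.4% of exon bases shared), ATF4 (47.2%), CTSA (43.4%), HSPE1 (40.6%), PSMB7 (39.5%), HOXA10 (29.9%), PCNA (26.7%) and FDPS (27.2%).

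Of the genes tested 9472 were called (64.5%), 4650 higher (31.7%) and 4822 lower (32.8%) in the combination. Those shares are the background against which each gene group below is read. Changes of at least 2-fold were unequal in direction, with 1254 genes higher (8.54%) and 490 lower (3.34%). A 4-fold change was reached by 281 rises and 76 falls, and an 8-fold change by 83 and 22. Without combination replicate 1, 4689 of 14751 tested genes were called higher (31.8%) and 4664 lower (31.6%), with 1334 (9.04%) and 575 (3.90%) at least 2-fold. Among the 14613 genes tested both ways, 8654 were called in the same direction, none in opposite directions, 795 only with the library and 633 only without it. Against MI-503, 6956 genes were called (47.4%), 3467 higher (23.6%) and 3489 lower (23.8%), and without replicate 1 they were 3209 (21.8%) and 4059 (27.5%).

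**Figure D1:**
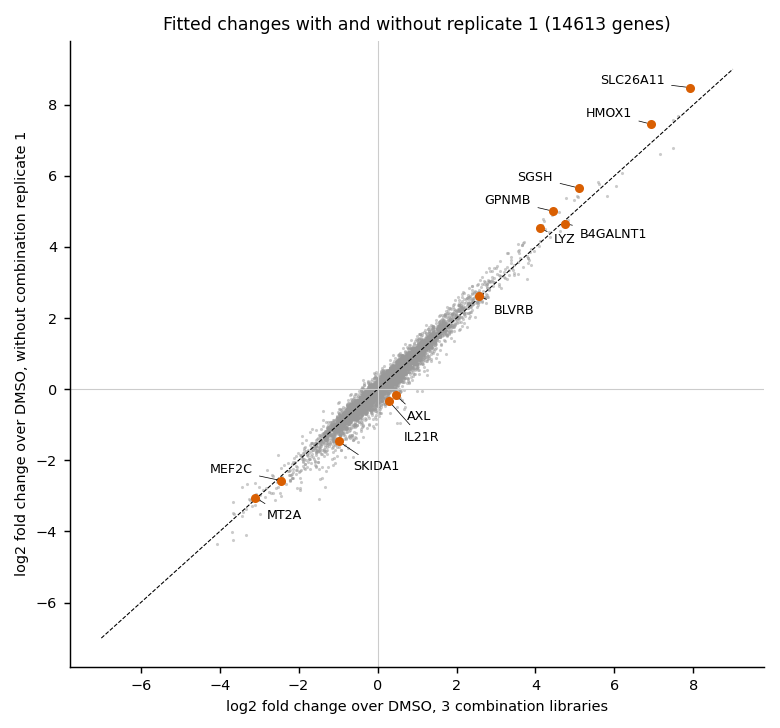
Log2 fold changes over DMSO fitted with 3 combination libraries (horizontal axis) and without replicate 1 (vertical axis), 1 point for each of 14613 genes, with the line of equality dashed and named genes in orange. Points follow the line, and the named genes farthest from it are those in which replicate 1 differed most from replicates 2 and 4, such as SLC26A11 at 7.92 and 8.48 and AXL at 0.46 and −0.16.

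Replicate 1 can also be read as a library outside the fit. Of the 1334 genes at least 2-fold higher in replicates 2 and 4, 1251 (93.8%) lay above every DMSO library in replicate 1, 860 (64.5%) lay beyond 2-fold of the DMSO mean and 17 lay below that mean. Of the 575 genes at least 2-fold lower, 523 (91.0%) lay below every DMSO library in replicate 1, 322 (56.0%) lay beyond 2-fold and 8 lay above the mean. These genes were chosen for the size of their change in replicates 2 and 4, and the DMSO libraries are shared. The shares are therefore a description and do not show that changes were smaller in replicate 1. Over all genes tested, every combination library lay above every DMSO library for 29.3% and below for 31.2%. The share of all genes for replicate 1 alone was not computed, so an excess over it is not shown. Among the 10111 genes that averaged 5 CPM or more in the combination, 42 differed more than 2-fold between replicate 1 and the mean of replicates 2 and 4, 7 of them above it and 35 below.

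Farthest below were SLC26A11, HMOX1, SNORD3A, GPNMB and SGSH, all called higher than in DMSO. HMOX1, the enzyme that splits heme, stood at 0.270, 0.230, 0.522 and 0.569 CPM in DMSO and at 7.98, 89.3 and 47.4 CPM in the combination. Its level in replicate 1 was already above every DMSO library, and replicates 2 and 4 were higher again. The fitted change was 6.91 (SE 0.74, edgeR adjusted p = 2.94e-07) or 7.46 without replicate 1, so the size of this rise depends on the library while its direction does not. GPNMB, a glycoprotein of lysosomes and melanosomes, stood at 0.169, 0.505, 0.427 and 0.190 CPM in DMSO and at 1.39, 11.2 and 8.93 CPM in the combination. SNORD3A, a small nucleolar RNA that polyadenylated libraries hold only in part, stood at 1.96, 18.3 and 12.3 CPM in the combination and at 1.84 to 2.75 CPM in DMSO. In that gene replicate 1 lay within the DMSO range. Among those farthest above were AXL, IL21R, SKIDA1 and HSPA7. AXL, a receptor tyrosine kinase, stood at 5.77, 7.03, 6.31 and 6.69 CPM in DMSO and at 13.95, 6.37 and 5.10 CPM in the combination, so only replicate 1 left the DMSO range upward. Its change was 0.46 and was not called (edgeR adjusted p = 0.0994), and it was −0.16 without replicate 1. IL21R, a cytokine receptor subunit, stood at 4.73, 5.61, 4.17 and 4.32 CPM in DMSO and at 9.04, 4.06 and 3.35 CPM in the combination, with replicate 1 above the DMSO range and replicates 2 and 4 below it. Its change of 0.29 was not called (edgeR adjusted p = 0.303), and without that library it was −0.34 (edgeR adjusted p = 0.0435). SKIDA1, a gene that KMT2A fusions bind, stood at 62.8, 66.6, 60.8 and 60.9 CPM in DMSO and at 47.6, 22.3 and 22.5 CPM in the combination, where all 3 combination libraries lay below DMSO and replicate 1 lay closest to it.

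The largest rises without overlap between groups belonged to SLC26A11, HMOX1, SGSH, CLEC12A, SDS, B4GALNT1, GPNMB, PNPLA1, LYZ and IL7R. SLC26A11, an anion transporter, stood at 0, 0.184, 0 and 0 CPM in DMSO and at 1.70, 22.2 and 12.1 CPM in the combination, and SGSH, the lysosomal enzyme that removes sulfate from heparan sulfate, at 0.169, 0.184, 0.237 and 0.190 CPM in DMSO and at 1.37, 11.9 and 7.999 CPM in the combination. These genes lie side by side on chromosome 17 in opposite directions (80220287 to 80253502, plus strand, and 80200668 to 80220333, minus strand, hg38). Their exons overlap at the shared end, where fragments were left out of the counts. The counts ignored strand, so any antisense reads outside that overlap would go to the gene whose exons they fall on. Both were low in replicate 1 and high in replicates 2 and 4. SLC26A11 had no count in 3 of 4 DMSO libraries, so its fitted change of 7.92 (SE 1.00, edgeR adjusted p = 2.39e-06) depends on how such values are moderated, and SGSH changed by 5.10 (SE 0.66, edgeR adjusted p = 2.81e-06). Without replicate 1 their changes were 8.48 and 5.66.

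B4GALNT1, which makes the gangliosides GM2 and GD2, stood at 0.304, 0.276, 0.237 and 0.380 CPM in DMSO and at 9.23, 7.27 and 7.85 CPM in the combination. All 3 combination libraries were far above DMSO and close together, a log2 change of 4.75 (SE 0.26, edgeR adjusted p = 1.13e-10). SDS, serine dehydratase of amino acid breakdown, went from 0.0949 to 0.368 CPM in DMSO to 4.01, 9.88 and 8.37 CPM in the combination, lowest in replicate 1, a log2 change of 4.98 (SE 0.36, edgeR adjusted p = 3.01e-09), and CLEC12A, a C-type lectin receptor of myeloid cells, changed by 5.05 (SE 0.41, edgeR adjusted p = 1.07e-08). Without replicate 1, SDS changed by 5.33 and CLEC12A by 5.44. Against MI-503, B4GALNT1 was higher by 5.62 (SE 0.28, edgeR adjusted p = 1.41e-10) and SDS by 3.67 (SE 0.30, edgeR adjusted p = 5.64e-08), whereas CLEC12A was higher by 0.76 (SE 0.25, edgeR adjusted p = 0.0204), a call lost without combination replicate 2 (0.75, edgeR adjusted p = 0.0515) or 4 (0.22, edgeR adjusted p = 0.398). No gene was at 1 CPM or more in every DMSO library and under 0.1 CPM in every combination library. Without replicate 1, NMRAL2P, a pseudogene, joined the 10 largest rises at 0.169, 0.0459, 0.0474 and 0.0949 CPM in DMSO and at 3.47, 6.52 and 4.87 CPM in the combination.

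The largest falls belonged to ALDH1A3, TBC1D30, FJX1, MT2A, EGR1, JMJD1C-AS1, MT1G, DLX5, RASD1 and GAL. DLX5, a homeobox factor, stood at 73.5, 62.4, 76.1 and 72.5 CPM in DMSO and at 13.3, 10.9 and 8.07 CPM in the combination, with all combination libraries well under DMSO and replicate 1 the highest of them. Its change was −2.70 (SE 0.12, edgeR adjusted p = 1.05e-11). GAL, which encodes the neuropeptide galanin, changed by −2.59 (SE 0.14, edgeR adjusted p = 7.15e-11), and FJX1, a secreted kinase-like protein, by −3.11 (SE 0.26, edgeR adjusted p = 1.43e-08). ALDH1A3, a retinaldehyde dehydrogenase, fell by 3.27 on the log2 scale (SE 0.19, edgeR adjusted p = 1.54e-10), but 49.4% of its exon bases are shared with another gene and were left out of its counts. JMJD1C-AS1 lies antisense to JMJD1C. Fragments on exons of both were left out, but without strand any unspliced JMJD1C reads on the remaining exon bases would be counted for JMJD1C-AS1. TBC1D30, RASD1 and ALDH1A3 were not called between the combination and MI-503 (edgeR adjusted p = 0.0943, 0.37 and 0.0708), though TBC1D30 and ALDH1A3 were without combination replicate 2 (−0.64 and −0.72, edgeR adjusted p = 0.0302 and 0.0184), whereas DLX5 was lower by −0.88 (SE 0.12, edgeR adjusted p = 1.97e-05). SPIB, an ETS factor of lymphoid and dendritic cells, joined the 10 largest falls without replicate 1, with 10.8, 10.8, 11.1 and 11.4 CPM in DMSO and at 2.90, 1.96 and 0.893 CPM in the combination.

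**Figure D2:**
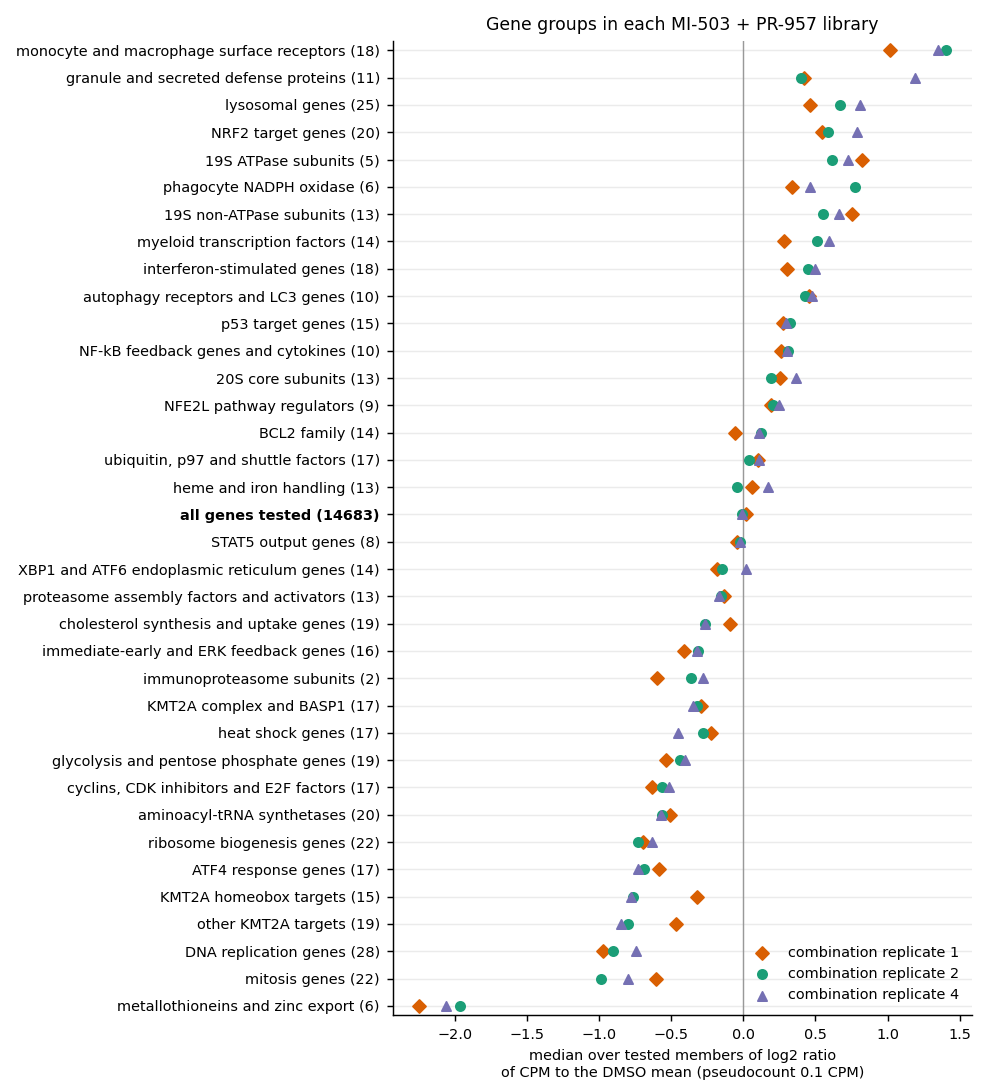
Median log2 ratio to the DMSO mean over the tested members of each gene group (rows, with the number of tested members), for combination replicate 1 (diamonds), replicate 2 (circles) and replicate 4 (triangles), with a pseudocount of 0.1 CPM. All tested genes sit near 0, and replicate 1 lies closer to 0 than the other libraries for the KMT2A target, mitosis, lysosomal and monocyte receptor groups but not for DNA replication or 19S subunit genes.

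KMT2A targets were lower as a group. Of 15 tested homeobox targets 12 were called lower and 2 higher, with a median change of −0.59 (−0.76 without replicate 1), and of 19 other targets 15 were lower and 1 higher, with a median of −0.77 (−0.79). Over all genes tested the median was 0.01. MEF2C, a transcription factor that sustains leukemia stem cells, stood at 214, 204, 190.1 and 206 CPM in DMSO and at 44.2, 36.2 and 31.7 CPM in the combination. The highest combination library was replicate 1 and still lay far under the lowest DMSO library, a log2 change of −2.44 (SE 0.08, edgeR adjusted p = 6.51e-13). MEIS1, the homeobox partner of HOXA9, stood at 53.9, 54.7, 53.8 and 52.3 CPM in DMSO and at 23.7, 15.001 and 12.5 CPM in the combination, where replicate 1 was again nearest to DMSO, and its change of −1.62 became −1.96 without it. JMJD1C, a histone demethylase, fell by 1.07 (SE 0.06, edgeR adjusted p = 7.81e-11). HOXA10, a homeobox factor, changed by −0.57 (SE 0.07, edgeR adjusted p = 1.29e-06).

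Not every target moved down. LMO2, a bridging factor of blood stem cell transcription complexes, stood at 112, 119.6, 108 and 109 CPM in DMSO and at 144, 162 and 168 CPM in the combination, above DMSO in each combination library and a log2 change of 0.49 (SE 0.05, edgeR adjusted p = 4.18e-07). VENTX, a homeobox gene of monocytic cells, rose by 0.49 (edgeR adjusted p = 0.000474). Against MI-503, 5 homeobox targets were lower and 1 higher, and 9 other targets were lower and 3 higher. In that contrast MEF2C changed by −0.47 (SE 0.08, edgeR adjusted p = 0.000202), HOXA10 by −0.51 (SE 0.07, edgeR adjusted p = 1.43e-05) and VENTX by −0.46 (SE 0.10, edgeR adjusted p = 0.00111). MEIS1 (edgeR adjusted p = 0.174) and JMJD1C (edgeR adjusted p = 0.415) were not called there, but MEIS1 was without combination replicate 1, at −0.63 (edgeR adjusted p = 1.12e-06).

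Among the partners of KMT2A, MEN1, which encodes Menin, stood at 80.5, 79.2, 82.7 and 76.4 CPM in DMSO and at 65.04, 63.7 and 61.02 CPM in the combination, a fall of 0.33 (SE 0.04, edgeR adjusted p = 4.8e-06). KMT2A itself was at 92.2, 103, 90.2 and 96.4 CPM in DMSO and at 105, 86.5 and 79.2 CPM in the combination. Its groups overlapped and it was not called (−0.07, edgeR adjusted p = 0.431), but it was called without replicate 1 (−0.19, edgeR adjusted p = 0.00863). BASP1, a brain acid soluble protein that acts as a corepressor of WT1, stood at 4.39, 5.61, 4.13 and 3.89 CPM in DMSO and at 16.6, 13.2 and 14.7 CPM in the combination, higher than DMSO in all 3 libraries by 1.73 (SE 0.11, edgeR adjusted p = 5.48e-10) and lower than in MI-503 by 0.33 on the log2 scale (edgeR adjusted p = 0.00957). MARCKS, which like BASP1 is a myristoylated membrane and actin protein, rose from 6.85 to 8.47 CPM in DMSO to 27.4, 21.1 and 28.98 CPM in the combination, a log2 change of 1.79 (SE 0.11, edgeR adjusted p = 5.53e-10), whereas its close relative MARCKSL1 fell from 156 to 158 CPM in DMSO to 56.2, 52.8 and 51.6 CPM in the combination, a log2 change of −1.55 (SE 0.05, edgeR adjusted p = 1.44e-13). WT1 itself, a zinc finger factor common in AML, went from 79.3 to 84.96 CPM in DMSO to 29.5, 29.4 and 28.01 CPM in the combination, a log2 change of −1.49 (SE 0.06, edgeR adjusted p = 4.15e-12) from DMSO and −0.96 (SE 0.06, edgeR adjusted p = 2.22e-09) from MI-503. MARCKS was lower than in MI-503 by 0.86 on the log2 scale (edgeR adjusted p = 2.49e-06).

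**Figure D3:**
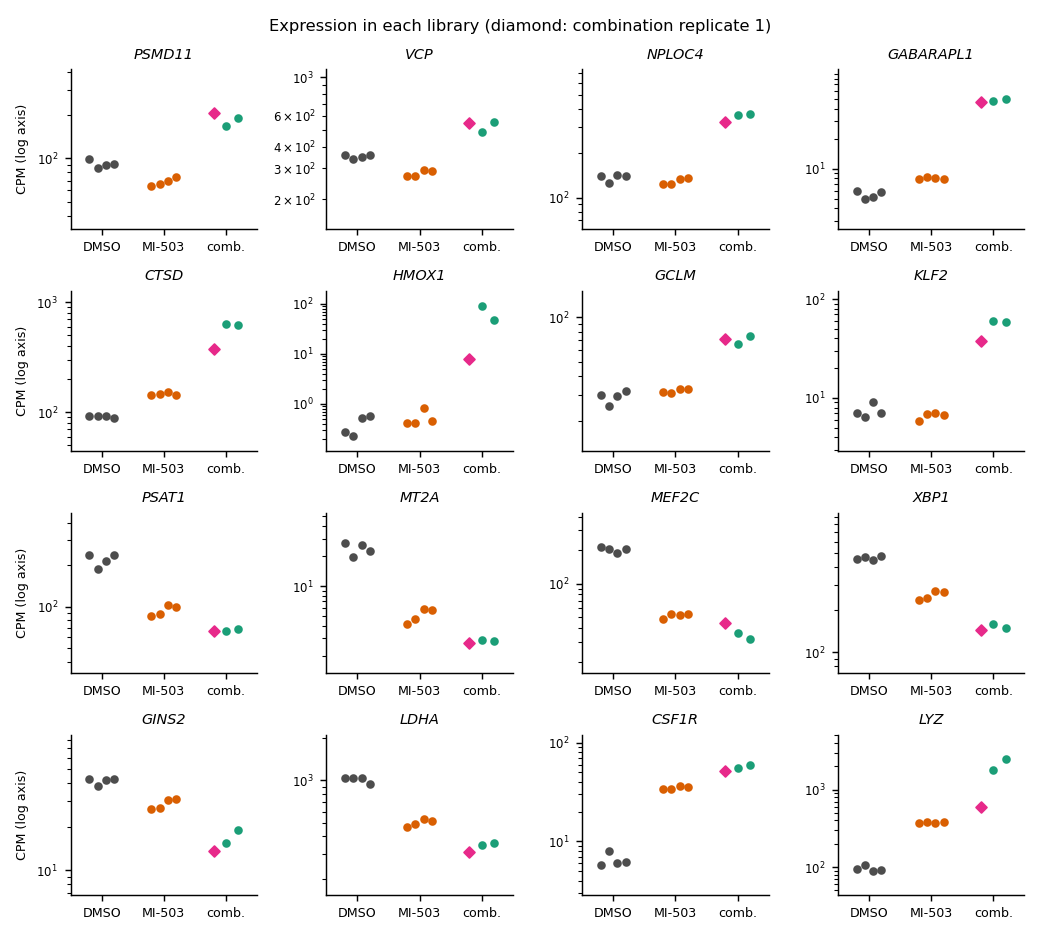
CPM (log axis) of 16 genes in each DMSO library (grey), each MI-503 library (orange), combination replicate 1 (pink diamond) and combination replicates 2 and 4 (green). PSMD11, VCP and NPLOC4 are above DMSO only in the combination, MEF2C and CSF1R lie outside the DMSO range in MI-503 as well, and HMOX1, LYZ and CTSD are lower in replicate 1 than in replicates 2 and 4.

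Proteasome genes rose in the combination, with higher medians in the cap than in the core. All 5 tested ATPase subunits of the 19S particle were called higher (median 0.74), as were 11 of 13 non-ATPase subunits (median 0.65) and 10 of 13 subunits of the 20S core (median 0.27), with none called lower in any of these sets. Without replicate 1 the medians were 0.70, 0.62 and 0.30. PSMD11, a scaffold subunit of the cap, stood at 98.7, 85.7, 90.1 and 91.1 CPM in DMSO and at 208, 167 and 189.6 CPM in the combination, a log2 change of 1.05 (SE 0.07, edgeR adjusted p = 6.07e-10). PSMD2, which binds ubiquitin-like shuttles, stood at 266, 239, 258 and 266 CPM in DMSO and at 532, 453 and 522 CPM in the combination, a log2 change of 0.97 (SE 0.06, edgeR adjusted p = 3.41e-10). In both the lowest combination library was far above the highest DMSO library. ADRM1, a ubiquitin receptor of the cap, changed by 0.86 (SE 0.06, edgeR adjusted p = 6.34e-10), and the ATPases PSMC2, PSMC1 and PSMC6, which pull substrates into the core, by 0.79, 0.76 and 0.74.

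Within the core the alpha ring gene PSMA1 changed by 0.80 (SE 0.05, edgeR adjusted p = 1.72e-10) and the beta ring genes PSMB4 and PSMB7 by 0.79 and 0.75, while others differed little from DMSO. PSMB5, the standard catalytic subunit that PSMB8 replaces, stood at 63.2, 65.5, 66.5 and 57.7 CPM in DMSO and at 66.5, 68.7 and 71.1 CPM in the combination. The lowest combination library exceeded the highest DMSO library by a hair, and the change of 0.12 was not called (edgeR adjusted p = 0.052), but it was called under 12 of 22 alternative settings, among them the fit without replicate 1 (0.17, edgeR adjusted p = 0.011). PSMA3, of the alpha ring, was not called (−0.08, edgeR adjusted p = 0.158). The immunoproteasome went the other way. PSMB8, the subunit that PR-957 inhibits, stood at 16.9, 18.7, 15.9 and 16.6 CPM in DMSO and at 10.6, 11.5 and 12.3 CPM in the combination, with every combination library under DMSO, and changed by −0.58 (SE 0.08, edgeR adjusted p = 8.35e-06). Against MI-503 it was lower by 0.66 on the log2 scale (edgeR adjusted p = 5.27e-06). PSMB8 lies on 8 contigs of the annotation, and fragments that map to several places were left out of the counts, so its level is a partial count. PSMB9 was not tested, and PSMB3 and PSMC4 had next to no counts, and whether this has the same reason was not tested. PSMB10 changed by −0.25 (edgeR adjusted p = 0.00683) with all libraries and by −0.11 without replicate 1, where it was not called (edgeR adjusted p = 0.0534).

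Factors that build or activate the proteasome did not rise with its subunits. Of 13 tested, 7 were called lower and 1 higher. PSMG1, a chaperone of the alpha ring, stood at 57.6, 54.9, 56.8 and 60.98 CPM in DMSO and at 30.9, 30.9 and 35.4 CPM in the combination, with all combination libraries under DMSO, a log2 change of −0.83 (SE 0.06, edgeR adjusted p = 2.47e-09). PSMG4 changed by −0.57 (SE 0.06, edgeR adjusted p = 1.61e-07), and PSME3, the nuclear activator PA28 gamma, by −0.54 (SE 0.06, edgeR adjusted p = 9.94e-07). Against MI-503 the subunits stood apart more widely. All 13 tested core subunits, all 5 ATPases and all 13 non-ATPase subunits were called higher than in MI-503, by medians of 0.67, 1.02 and 1.02, against 23.6% of all genes tested, while 3 assembly factors and activators were higher and 4 lower. PSMD11 was higher than in MI-503 by 1.46 (SE 0.07, edgeR adjusted p = 4.79e-11) and PSMA3 by 0.32 (SE 0.05, edgeR adjusted p = 2.56e-05).

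**Figure D4:**
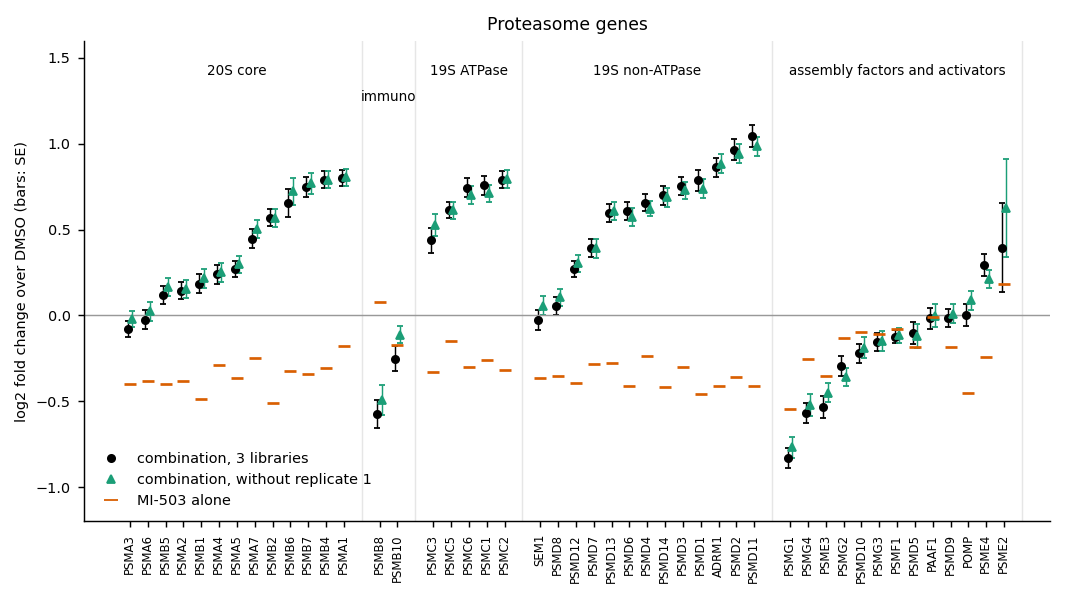
Log2 fold change over DMSO of each tested proteasome gene (vertical axis), sorted within the 20S core, immunoproteasome, 19S ATPase, 19S non-ATPase and assembly groups, with all 3 combination libraries (black circles) and without replicate 1 (green triangles). Bars are SE, and orange dashes are MI-503 alone in the same model. Subunits of core and cap lie above 0 in the combination with few exceptions and mostly below 0 in MI-503, and PSMG1 and PSMB8 lie at −0.83 and −0.58.

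Promoters of these genes were searched for the antioxidant response element, here the letters TGACNNNGC on either strand in the 250 bases before the gene start in RefSeq (GRCh38.p14). Of 28 proteasome subunit promoters given there, 4 held a match (14.3%), against 11% of all 27305 promoters and 12.5% of those of tested genes, so these letters were about as common there as elsewhere. Of 13 promoters of NRF2 target genes 4 held one (30.8%), as did 7 of 13 of the assembly factors and activators (53.8%) and 6 of 12 of the ubiquitin and p97 group. Windows of PSMD3 and PSMD12, cap subunits that rose, and for comparison of GCLM and ME1 are shown with the matched letters in capitals.
PSMD3 (chr17:39980758-39980790, plus strand): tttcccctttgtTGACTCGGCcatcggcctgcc
PSMD12 (chr17:67366722-67366754, minus strand): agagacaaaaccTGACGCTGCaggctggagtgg
GCLM (chr1:93909444-93909476, minus strand): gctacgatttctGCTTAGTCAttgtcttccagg
ME1 (chr6:83431168-83431200, minus strand): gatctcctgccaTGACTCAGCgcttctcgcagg
PSMD3 and PSMD12, scaffold subunits chosen here for their windows, changed by 0.75 and 0.27. In GCLM the element lies on the other strand.

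The regulators upstream of these sites moved by small amounts. NFE2L1, the factor that answers proteasome inhibition, stood at 122, 119, 115 and 117 CPM in DMSO and at 135, 133 and 143 CPM in the combination, all 3 combination libraries above DMSO, and changed by 0.22 (SE 0.04, edgeR adjusted p = 0.000229). DDI2, the protease that releases NFE2L1 from the membrane, changed by −0.17 (SE 0.05, edgeR adjusted p = 0.00318). NFE2L2 changed by 0.16 (edgeR adjusted p = 0.0192) and lost its call under 4 of 22 alternative settings. Larger changes were seen in their dimer partners and competitor. MAFG, a small MAF partner, stood at 217, 192, 220.2 and 211 CPM in DMSO and at 341, 386 and 401 CPM in the combination, a log2 change of 0.84 (SE 0.06, edgeR adjusted p = 1.21e-09). MAFF changed by 0.77 (SE 0.11, edgeR adjusted p = 7.73e-06) and BACH1, which represses HMOX1, by 0.63 (SE 0.05, edgeR adjusted p = 3.72e-09). In all, 7 of 9 regulators were called higher and 1 lower.

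NRF2 targets rose as a group, with 16 of 20 called higher and 2 lower and a median of 0.66 (0.71 without replicate 1). GCLM, the modifier subunit of glutathione synthesis, stood at 29.6, 24.9, 29.4 and 31.5 CPM in DMSO and at 71.2, 66.6 and 75.2 CPM in the combination, a log2 change of 1.30 (SE 0.07, edgeR adjusted p = 4.66e-11). BLVRB, a biliverdin reductase, stood at 20.1, 24.1, 23.1 and 21.1 CPM in DMSO and at 126, 115 and 150.0 CPM in the combination, a log2 change of 2.57 (SE 0.08, edgeR adjusted p = 1.49e-13). For both genes the 3 combination libraries lay together and far above DMSO, unlike HMOX1. TALDO1, of the pentose phosphate pathway, changed by 0.66 (SE 0.05, edgeR adjusted p = 6.85e-09). The larger of the 2 falls was in NQO1, a quinone reductase often used to read NRF2 activity, at 36.9, 25.7, 35.3 and 32.98 CPM in DMSO and at 28.6, 23.4 and 22.7 CPM in the combination, a log2 change of −0.39 (SE 0.11, edgeR adjusted p = 0.00404). It lay below DMSO in replicates 2 and 4 and overlapped it in replicate 1. Against MI-503, 19 of the 20 were higher and none lower, NQO1 among them (0.47 (SE 0.11, edgeR adjusted p = 0.00182)).

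**Figure D5:**
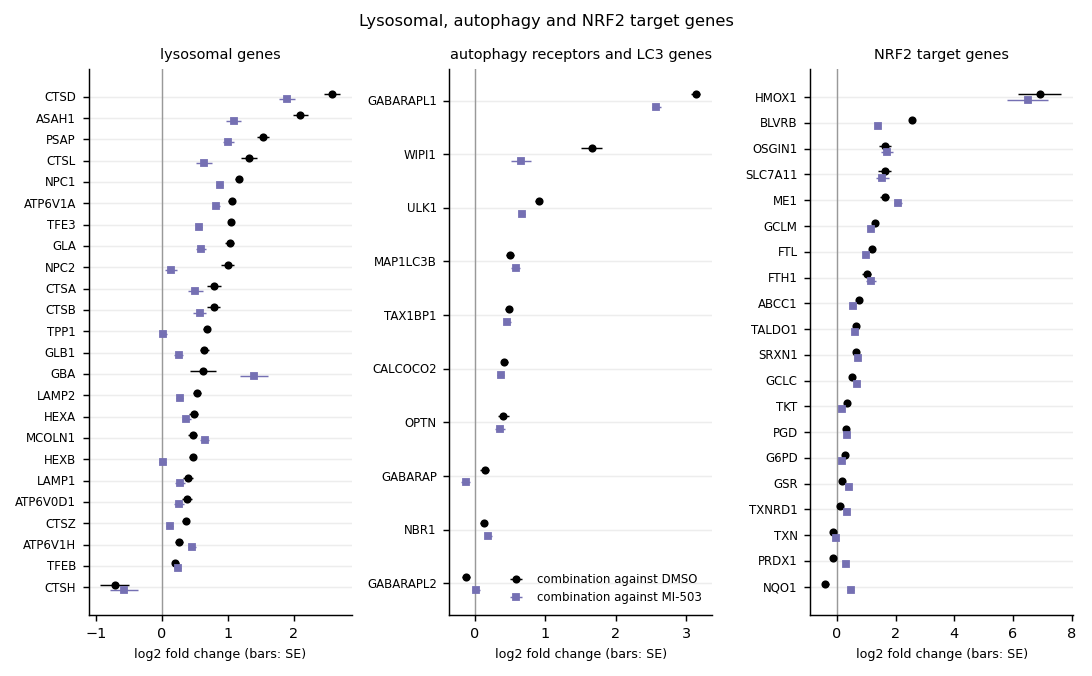
Log2 fold changes (horizontal axis, bars are SE) of tested members of the lysosomal, autophagy and NRF2 target groups, for the combination against DMSO (black circles) and against MI-503 (purple squares). Both contrasts use the same combination libraries. CTSD, GABARAPL1 and HMOX1 lead their groups, and CTSH and NQO1 are the members below 0 by most against DMSO.

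Ubiquitin genes did not move as one. UBB, a polyubiquitin gene named after its values were seen, stood at 837, 823, 871 and 835 CPM in DMSO and at 998, 863 and 829.9 CPM in the combination and was not called (0.09, edgeR adjusted p = 0.162). NPLOC4, a cofactor of the p97 unfoldase, stood at 140.1, 126, 142 and 140.0 CPM in DMSO and at 327, 363 and 371 CPM in the combination, a log2 change of 1.37 (SE 0.06, edgeR adjusted p = 4.97e-12), and VCP, p97 itself, at 357, 338, 348 and 358 CPM in DMSO and at 548, 488 and 555 CPM in the combination, a log2 change of 0.60 (SE 0.05, edgeR adjusted p = 1.58e-08). ZFAND5, which binds and activates the 26S proteasome, changed by 1.02 (SE 0.04, edgeR adjusted p = 7.02e-12). UCHL5, a deubiquitinase of the cap, fell by 0.72 (SE 0.04, edgeR adjusted p = 1.01e-10). Over the 17 members 7 were called higher and 5 lower, against 31.7% and 32.8% of all genes tested. NPLOC4 and VCP were also higher than in MI-503, by 1.45 and 0.92 (edgeR adjusted p = 8.14e-12 and 3.66e-10).

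Autophagy genes were higher in 8 of 10 tested cases and lower in none. GABARAPL1, an ATG8 protein that coats autophagosomes, stood at 5.91, 4.96, 5.17 and 5.79 CPM in DMSO and at 46.7, 47.9 and 49.7 CPM in the combination. The 3 combination libraries agreed closely and the change was 3.13 (SE 0.07, edgeR adjusted p = 5.86e-15), or 2.57 against MI-503 (SE 0.07, edgeR adjusted p = 5.57e-14). ULK1, the kinase that starts autophagy, stood at 74.7, 68.2, 77.1 and 73.3 CPM in DMSO and at 134, 144 and 135 CPM in the combination, a log2 change of 0.91 (SE 0.05, edgeR adjusted p = 5.61e-11). WIPI1, which binds early autophagic membranes, changed by 1.66 (SE 0.15, edgeR adjusted p = 5.12e-08). GABARAPL2 was not called (−0.12, edgeR adjusted p = 0.0618). SQSTM1 was not tested, with 0 to 0.237 CPM in DMSO and 0.543, 0.401 and 0.186 CPM in the combination, on 2 contigs of the annotation.

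Lysosomal genes rose almost throughout. Of 25 members, 24 were called higher and 1 lower, with a median of 0.68 (0.76 without replicate 1), and all 24 had every combination library above every DMSO library, against 29.3% of all genes tested. CTSD, the aspartic protease cathepsin D, stood at 92.2, 91.4, 92.97 and 88.97 CPM in DMSO and at 378, 627 and 626 CPM in the combination, a log2 change of 2.57 (SE 0.12, edgeR adjusted p = 1.52e-11). Replicate 1 lay between DMSO and the other combination libraries. LAMP1, a main membrane protein of lysosomes, stood at 237, 210.4, 229 and 229 CPM in DMSO and at 253, 302 and 343 CPM in the combination, a log2 change of 0.40 (SE 0.08, edgeR adjusted p = 0.00023). TFE3, a transcription factor of lysosomal genes, changed by 1.05 (SE 0.05, edgeR adjusted p = 1.1e-11). CTSH, at 1.35, 1.10 and 0.856 CPM in the combination against 1.42 to 2.34 CPM in DMSO, was the member called lower (−0.71, edgeR adjusted p = 0.00869). Against MI-503, 20 members were higher and 1 lower, with CTSD at 1.90 (SE 0.12, edgeR adjusted p = 1.43e-09).

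TFEB and TFE3 are known to bind the CLEAR element, whose core TCACGTGA contains the E-box CACGTG. The core was found in 4 of 15 lysosomal gene promoters (26.7%), against 0.89% of all promoters and 1.61% of those of tested genes, and CACGTG in 5 of 15 (33.3%), against 6.49% and 8.79%. The windows holding the core are shown because 24 of the 25 lysosomal genes rose, with the core in capitals. All are written along the strand of the gene.
LAMP1 (chr13:113297198-113297229, plus strand): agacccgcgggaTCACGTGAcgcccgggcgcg
CTSA (chr20:45891297-45891328, plus strand): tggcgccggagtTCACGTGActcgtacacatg
MCOLN1 (chr19:7522570-7522601, plus strand): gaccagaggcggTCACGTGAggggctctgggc
ATP6V0D1 (chr16:67481198-67481229, minus strand): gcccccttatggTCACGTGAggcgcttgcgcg
CTSA, MCOLN1 and ATP6V0D1, named for these windows, encode a carboxypeptidase, a calcium channel and a proton pump subunit of the lysosome, and changed by 0.79, 0.47 and 0.38. MCOLN1 holds another core closer to its start. The antioxidant letters TGACNNNGC were found in 6 of the 15 lysosomal promoters (40.0%). The shares describe the list of lysosomal genes, and promoters of other genes that rose were not compared. A match of letters does not show binding in these cells.

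Protein stress genes outside the proteasome gave a split picture. Heat shock genes, among which the mitochondrial pair HSPD1 and HSPE1 is counted, were called higher in 4 of 17 cases and lower in 9, with a median of −0.24 (−0.38 without replicate 1). Against MI-503 the counts ran in the opposite direction, with 9 higher and 2 lower and a median of 0.23. HSPA1A, an inducible HSP70, stood at 3.58, 4.50, 3.08 and 2.94 CPM in DMSO and at 7.27, 10.2 and 7.59 CPM in the combination, a log2 change of 1.22 (SE 0.16, edgeR adjusted p = 3.66e-06), but it lies on 5 contigs of the annotation and is nearly identical to HSPA1B (1.02, edgeR adjusted p = 0.000401), so both are partial counts. BAG3, a cochaperone of HSP70, changed by 0.68 (SE 0.06, edgeR adjusted p = 2.52e-08). HSPD1 and HSPE1, the mitochondrial chaperonin pair, went the other way, HSPD1 from 799.9 to 863 CPM in DMSO to 520.3, 440.0 and 399 CPM in the combination, a log2 change of −0.90 (SE 0.07, edgeR adjusted p = 4.9e-09), and HSPE1 by −0.94 (SE 0.06, edgeR adjusted p = 1.06e-09). HSP90AB1, named after its values were seen, at 3539, 3326, 3307 and 3357 CPM in DMSO and at 3432, 2605 and 2541 CPM in the combination, overlapped DMSO in replicate 1 and changed by −0.24 (edgeR adjusted p = 0.0129), or by −0.38 without that library. It lost its call under 4 of 22 alternative settings.

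ATF4, the factor of the integrated stress response, stood at 570.1, 500.3, 577 and 561 CPM in DMSO and at 419.9, 343 and 332 CPM in the combination, a log2 change of −0.60 (SE 0.07, edgeR adjusted p = 1.71e-06), and 13 of 17 genes of its response were called lower and 3 higher, with a median of −0.75, whereas 11 were lower and 3 higher without replicate 1 (median −0.69). PSAT1 and PHGDH make serine. PSAT1 stood at 236, 187, 212 and 235 CPM in DMSO and at 66.8, 67.1 and 68.9 CPM in the combination, a log2 change of −1.69 (SE 0.08, edgeR adjusted p = 1.89e-11), and PHGDH at 344, 300.4, 341 and 324 CPM in DMSO and at 124, 118 and 117 CPM in the combination, a log2 change of −1.45 (SE 0.06, edgeR adjusted p = 4.21e-12). The 3 combination libraries agreed for both and none overlapped DMSO. CHAC1, which degrades glutathione, changed by −2.09 (SE 0.18, edgeR adjusted p = 1.59e-08). The 3 members that rose were DDIT3, PPP1R15A and NUPR1. DDIT3, the factor CHOP, stood at 13.1, 11.99, 12.7 and 13.7 CPM in DMSO and at 24.1, 33.01 and 29.4 CPM in the combination, a log2 change of 1.15 (SE 0.10, edgeR adjusted p = 1.78e-08). PPP1R15A, which directs removal of phosphate from eIF2 alpha, changed by 1.20 (SE 0.07, edgeR adjusted p = 1.54e-10). NUPR1 stood at 0.371, 0.322, 0.427 and 0.190 CPM in DMSO and at 1.23, 5.72 and 5.51 CPM in the combination, low in replicate 1, with a change of 3.56 and 4.08 without it. Against MI-503 the 17 members were divided, 7 higher and 7 lower, with DDIT3 at 1.24 (SE 0.10, edgeR adjusted p = 3.18e-08) and PHGDH at −0.80 (SE 0.06, edgeR adjusted p = 1.33e-08).

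Aminoacyl-tRNA synthetases, which load amino acids onto tRNA, were lower in 19 of 20 cases, with a median of −0.55. For all 19 every combination library lay under every DMSO library, against 31.2% of all genes tested. GARS1 stood at 243, 203, 227 and 243 CPM in DMSO and at 98.8, 96.2 and 98.5 CPM in the combination, a log2 change of −1.23 (SE 0.07, edgeR adjusted p = 9.1e-11). YARS1 changed by −0.98 (SE 0.06, edgeR adjusted p = 1.51e-10) and TARS1 by −0.76 (SE 0.05, edgeR adjusted p = 3.97e-10). In the endoplasmic reticulum group 3 genes rose and 5 fell of 14, against 31.7% and 32.8% of all genes tested. XBP1, whose spliced form drives secretory chaperones, stood at 456, 472, 447 and 476 CPM in DMSO and at 144, 159 and 149 CPM in the combination, a log2 change of −1.62 (SE 0.06, edgeR adjusted p = 8.28e-13) from DMSO and −0.75 (SE 0.06, edgeR adjusted p = 1.97e-08) from MI-503. HSPA5 (BiP), the main chaperone of the lumen, stood at 378, 392, 352 and 385 CPM in DMSO and at 366, 371 and 407 CPM in the combination and was not called (0.02, edgeR adjusted p = 0.779). CRELD2, an isomerase of the secretory pathway, changed by 0.52 (SE 0.07, edgeR adjusted p = 3.34e-06).

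Genes of monocytes and macrophages rose widely. Of 25 listed surface receptors 18 passed the count filter. Of these 17 were called higher and none lower, against 31.7% and 32.8% of all genes tested. The median was 1.36 (1.55 over 19 receptors without replicate 1). Receptors near 0 CPM in DMSO pass the filter only where treatment raised them, so the tested share favors rises. FCGR1A, the receptor not called, changed by −0.19 and was called lower when combination replicate 4 was left out. CSF1R, the receptor for macrophage colony-stimulating factor, stood at 5.74, 7.95, 6.07 and 6.17 CPM in DMSO and at 51.96, 55.2 and 59.4 CPM in the combination, a log2 change of 3.10 (SE 0.08, edgeR adjusted p = 4.84e-14). ITGAX (CD11c) stood at 3.85, 6.98, 4.98 and 3.46 CPM in DMSO and at 38.03, 54.5 and 47.5 CPM in the combination, a log2 change of 3.28 (SE 0.16, edgeR adjusted p = 2.56e-11), ITGAM (CD11b) changed by 1.59 (SE 0.07, edgeR adjusted p = 1.19e-11), and IL7R, the interleukin-7 receptor chain, stood at 1.86, 2.25, 1.75 and 2.28 CPM in DMSO and at 29.9, 26.1 and 31.7 CPM in the combination, a log2 change of 3.85 (SE 0.11, edgeR adjusted p = 7.14e-14). In each of these genes all combination libraries were above all DMSO libraries. Against MI-503, 7 receptors were higher, 6 lower and 5 not called. IL7R (1.80 (SE 0.09, edgeR adjusted p = 1.05e-10)), ITGAX (1.35 (SE 0.14, edgeR adjusted p = 5.62e-07)) and CSF1R (0.67 (SE 0.07, edgeR adjusted p = 1.06e-06)) were among those higher, CX3CR1 (−1.07 (SE 0.12, edgeR adjusted p = 1.31e-06)) and FCGR1A (−0.53 (SE 0.10, edgeR adjusted p = 0.000234)) among those lower, and TLR4 was not called (edgeR adjusted p = 0.491). CX3CR1, the fractalkine receptor, which was named after its values were seen, stood at 17.7, 17.7, 16.4 and 18.4 CPM in DMSO and at 30.6, 19.3 and 19.7 CPM in the combination, where replicate 1 alone was far from DMSO. CD14 was not tested, at 0.184 to 0.427 CPM in DMSO and 0.0472, 0.151 and 0.484 CPM in the combination.

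Of 15 listed granule and secreted defense genes 11 were tested. Of these 6 were called higher and none lower, against 31.7% and 32.8% of all genes tested, with a median of 0.55. Without replicate 1 the count was 8 higher and none lower, with a median of 0.95. Against MI-503, 5 were higher and 4 lower. LYZ, lysozyme, stood at 94.4, 106, 87.99 and 92.3 CPM in DMSO and at 599, 1812 and 2513 CPM in the combination, a log2 change of 4.11 (SE 0.30, edgeR adjusted p = 2.56e-09), and 4.52 without replicate 1. S100A8 and S100A9, the subunits of calprotectin, both rose. S100A8 stood at 1.22, 2.34, 1.09 and 1.23 CPM in DMSO and at 2.12, 9.18 and 11.4 CPM in the combination. S100A9 stood at 2.57, 3.91, 2.61 and 2.94 CPM in DMSO and at 4.41, 13.1 and 17.2 CPM in the combination. In S100A8 replicate 1 overlapped the DMSO libraries, and the changes of 2.32 and 1.91 became 2.84 and 2.37 without it. BPI, which binds bacterial endotoxin, changed by 2.35 (SE 0.19, edgeR adjusted p = 1.23e-08) but was lower than in MI-503 by 0.52 on the log2 scale (edgeR adjusted p = 0.0147). The azurophil granule genes MPO and CTSG, of an earlier stage, were not called. MPO stood at 106, 139, 109 and 102 CPM in DMSO and at 103, 131 and 156 CPM in the combination and changed by 0.18 (edgeR adjusted p = 0.164), but was called without replicate 1 (0.35, edgeR adjusted p = 0.00101), and was lower than in MI-503 (−0.74 (SE 0.11, edgeR adjusted p = 4.67e-05)). CTSG stood at 459, 591, 463 and 488 CPM in DMSO and at 297, 403 and 533 CPM in the combination (−0.29, edgeR adjusted p = 0.0696) and was called without combination replicate 4 (−0.52, edgeR adjusted p = 0.000388). Of the phagocyte oxidase, CYBB, the membrane subunit, stood at 0.270, 0.368, 0.142 and 0.190 CPM in DMSO and at 0.874, 2.81 and 2.49 CPM in the combination, a log2 change of 2.96 (SE 0.42, edgeR adjusted p = 7.65e-06) or 3.42 without replicate 1, while RAC2, its GTPase, fell from 399 to 449.6 CPM in DMSO to 224, 263 and 257 CPM in the combination, a log2 change of −0.75 (SE 0.06, edgeR adjusted p = 5.26e-09).

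Transcription factors of the myeloid lineage were called higher in 9 of 14 cases and lower in 3, against 31.7% and 32.8% of all genes tested. Without replicate 1 the counts were 11 and 4 of 15. The added member passed the count filter only in that fit, so its call is no further support. KLF2, a factor of quiescence, stood at 7.05, 6.34, 9.15 and 7.07 CPM in DMSO and at 37.7, 60.01 and 58.2 CPM in the combination, a log2 change of 2.80 (SE 0.14, edgeR adjusted p = 4.83e-11). In MI-503 alone it was at 5.83 to 7.10 CPM, and the difference between the combination and MI-503 was 2.96 (SE 0.14, edgeR adjusted p = 9.32e-11). KLF6 changed by 1.55 (SE 0.07, edgeR adjusted p = 6.68e-12) and TFEC, a relative of TFEB found in macrophages, by 1.55 (SE 0.07, edgeR adjusted p = 1.52e-11). CEBPA, a driver of granulocyte and monocyte fate, stood at 791, 749, 803 and 735 CPM in DMSO and at 901, 1130.1 and 1178 CPM in the combination, a log2 change of 0.48 (SE 0.07, edgeR adjusted p = 1.92e-05), and SPI1 (PU.1) changed by 0.41 (SE 0.07, edgeR adjusted p = 5.29e-05). IRF8, a monocyte factor named after its values were seen, stood at 537, 617, 533 and 495 CPM in DMSO and at 494, 634 and 713 CPM in the combination, replicate 1 just under the lowest DMSO library and replicates 2 and 4 above the highest, and was called without replicate 1 (0.32, edgeR adjusted p = 9.42e-05) but not with it (0.17, edgeR adjusted p = 0.117). GATA2, a factor of stem and progenitor cells, changed by −1.17 (SE 0.10, edgeR adjusted p = 2.37e-08).

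MOLM-13 depends on FLT3, whose signal runs through ERK and STAT5. Of 16 immediate-early and ERK feedback genes 8 were called lower and 3 higher, against 32.8% and 31.7% of all genes tested. EGR1 stood at 26.1, 8.87, 19.9 and 12.9 CPM in DMSO and at 2.12, 2.56 and 1.86 CPM in the combination, spread widely within DMSO and low in all combination libraries, a log2 change of −2.99 (SE 0.34, edgeR adjusted p = 6.49e-07). DUSP6, an ERK phosphatase, changed by −0.62 (SE 0.08, edgeR adjusted p = 4.62e-06) from DMSO and by −0.62 (SE 0.08, edgeR adjusted p = 1.12e-05) from MI-503, and SPRED1, an inhibitor of RAS, by −0.67 (SE 0.09, edgeR adjusted p = 2.67e-06). JUN, an AP-1 subunit, went the other way, at 2.53, 3.12, 2.85 and 3.08 CPM in DMSO and at 17.6, 23.7 and 25.8 CPM in the combination, a log2 change of 2.95 (SE 0.13, edgeR adjusted p = 1.09e-11). Of 8 STAT5 output genes 4 were lower and 3 higher, against 32.8% and 31.7% of all genes tested. SOCS2 stood at 222, 224, 218 and 223 CPM in DMSO and at 77.8, 67.6 and 66.7 CPM in the combination, a log2 change of −1.65 (SE 0.06, edgeR adjusted p = 6.51e-13), while SOCS3 changed by 0.81 (SE 0.12, edgeR adjusted p = 1.13e-05) and PIM1 by 0.28 (SE 0.09, edgeR adjusted p = 0.0122). PIM1, a survival kinase, was lower than in MI-503 by 0.47 on the log2 scale (edgeR adjusted p = 0.00029).

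Cell cycle genes were lower without exception in these groups. All 28 DNA replication genes (median −0.91) and all 22 mitosis genes (median −0.81) were called lower, and each had every combination library below every DMSO library, against 31.2% of all genes tested. GINS2, part of the replicative helicase, stood at 42.9, 38.2, 41.9 and 42.99 CPM in DMSO and at 13.6, 15.5 and 18.97 CPM in the combination, a log2 change of −1.39 (SE 0.10, edgeR adjusted p = 1.6e-09). MCM10 changed by −1.31 (SE 0.08, edgeR adjusted p = 2.02e-10), MCM4, a subunit of the MCM ring, by −1.08 (SE 0.06, edgeR adjusted p = 1.68e-10), and PCNA, the sliding clamp, from 166 to 179.9 CPM in DMSO to 71.8, 92.3 and 104 CPM in the combination. In these replication genes replicate 1 was the lowest combination library. CDK1, the mitotic kinase, stood at 146, 129, 138 and 143 CPM in DMSO and at 71.5, 60.9 and 68.4 CPM in the combination, a log2 change of −1.05 (SE 0.06, edgeR adjusted p = 6.31e-11), and BUB1, a checkpoint kinase, changed by −0.90 (SE 0.06, edgeR adjusted p = 2.49e-09). MKI67 stood at 1030.4, 831, 895 and 982 CPM in DMSO and at 514, 468 and 520.0 CPM in the combination, a log2 change of −0.90 (SE 0.07, edgeR adjusted p = 3.76e-09). TOP2A stood at 611, 552, 580.4 and 614 CPM in DMSO and at 528, 363 and 399 CPM in the combination and changed by −0.45 (SE 0.09, edgeR adjusted p = 0.000234), with replicate 1 much nearer to DMSO than replicates 2 and 4. Against MI-503, 26 replication genes and all 22 mitosis genes were lower, against 23.8% of all genes tested, with GINS2 at −0.86 (SE 0.10, edgeR adjusted p = 1.83e-06) and CDK1 at −0.60 (SE 0.06, edgeR adjusted p = 2.22e-07).

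Promoters of the cell cycle groups were searched for the E2F element, here TTTNNCGC, and the cell cycle homology region of late genes, here TTTGAA, on either strand. The first was found in 10 of 24 replication gene promoters (41.7%), against 5.93% of all promoters and 8.95% of those of tested genes, and the second in 10 of 18 mitosis gene promoters (55.6%), against 13.6% and 8.80%. Replication genes held TTTGAA in 1 of 24 and mitosis genes TTTNNCGC in 2 of 18. Every member of both lists was called lower, so no members that kept their level could be compared. The shares describe the lists and not the treatment. Windows of 3 genes with each element are shown as examples, written along the strand of the gene, with the matched letters in capitals.
GINS2 (chr16:85688966-85688997, minus strand): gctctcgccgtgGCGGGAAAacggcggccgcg
PCNA (chr20:5126662-5126693, minus strand): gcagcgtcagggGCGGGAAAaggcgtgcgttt
POLA1 (chrX:24693769-24693800, plus strand): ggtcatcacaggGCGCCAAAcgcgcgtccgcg
CDK1 (chr10:60778158-60778187, plus strand): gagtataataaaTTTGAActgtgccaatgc
PLK1 (chr16:23678848-23678877, plus strand): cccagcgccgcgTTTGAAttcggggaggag
MKI67 (chr10:128126435-128126464, minus strand): tcttcgttttcgTTTGAAttgggcgggcgc
In GINS2, PCNA and POLA1 the element reads on the strand opposite to the gene. POLA1, the catalytic subunit of the polymerase that starts new strands, changed by −0.87 (SE 0.05, edgeR adjusted p = 2.06e-10), and PLK1, a mitotic kinase named here for its window, by −0.98.

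Regulators of the cycle followed in part, with 15 of 17 tested cyclins, CDK inhibitors and E2F factors lower and none higher. E2F1 stood at 59.4, 57.8, 65.5 and 60.9 CPM in DMSO and at 26.6, 34.7 and 39.8 CPM in the combination, a log2 change of −0.86 (SE 0.10, edgeR adjusted p = 1.16e-06), and E2F8, a repressor of the same genes, changed by −1.26 (SE 0.10, edgeR adjusted p = 5.54e-09). RBL1 (p107) changed by −0.90 (SE 0.07, edgeR adjusted p = 4.73e-09), while RBL2 (p130) stood at 129, 129.6, 122 and 128 CPM in DMSO and at 144, 131 and 131 CPM in the combination and was not called (0.09, edgeR adjusted p = 0.0945). CDKN2C, a CDK4 and CDK6 inhibitor, changed by −0.79 (SE 0.06, edgeR adjusted p = 1.92e-09). Of 15 p53 targets 11 were higher and 2 lower, with a median of 0.27. TP53INP1, which links p53 to autophagy, stood at 3.88, 3.68, 3.75 and 3.37 CPM in DMSO and at 19.01, 19.4 and 16.1 CPM in the combination, a log2 change of 2.30 (SE 0.12, edgeR adjusted p = 4.65e-11). BTG2, an antiproliferative gene, changed by 1.63 (SE 0.11, edgeR adjusted p = 8.31e-10) and GADD45A, a stress sensor, by 1.42 (SE 0.07, edgeR adjusted p = 4.15e-11). CDKN1A (p21) stood at 141, 142, 146 and 149 CPM in DMSO and at 145, 170.0 and 171 CPM in the combination, replicate 1 within the DMSO range. Its call (0.16, edgeR adjusted p = 0.0182) was lost without combination replicate 2 or 4, and it was higher than in MI-503 by 0.59 (SE 0.06, edgeR adjusted p = 2.53e-07). AEN, a p53-induced nuclease, fell by 0.68 (SE 0.09, edgeR adjusted p = 3.62e-06).

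Of 14 BCL2 family genes 5 were called higher and 5 lower, near the shares of all genes tested (31.7% and 32.8%). BMF, which frees BAX and BAK by binding BCL2 proteins, stood at 14.8, 18.7, 17.2 and 16.6 CPM in DMSO and at 52.4, 39.5 and 40.2 CPM in the combination, a log2 change of 1.41 (SE 0.09, edgeR adjusted p = 9.09e-10). BCL2L2 (BCL-w) changed by 0.37 (SE 0.06, edgeR adjusted p = 4.84e-05), and BID, a link between death receptors and mitochondria, by −0.47 (SE 0.06, edgeR adjusted p = 2.98e-06). MCL1, on which AML cells often depend, stood at 304, 289, 285 and 299.8 CPM in DMSO and at 265, 258 and 259 CPM in the combination, a log2 change of −0.18 (SE 0.04, edgeR adjusted p = 0.000899), under each DMSO library in each combination library. Against MI-503, MCL1 was higher by 0.16 (SE 0.04, edgeR adjusted p = 0.00288).

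Growth and metabolism genes were lower. Ribosome biogenesis genes were called lower in 21 of 22 cases with a median of −0.67. UTP20, of the small subunit processome, stood at 171, 159.8, 154 and 174 CPM in DMSO and at 77.4, 81.4 and 86.5 CPM in the combination, a log2 change of −1.01 (SE 0.05, edgeR adjusted p = 5.28e-11), NOP16 changed by −1.15 (SE 0.06, edgeR adjusted p = 8.79e-11), GNL3 (nucleostemin) by −0.90 (SE 0.04, edgeR adjusted p = 1.1e-11), and NPM1, nucleophosmin, by −0.45 (SE 0.05, edgeR adjusted p = 1.98e-07). Of 19 glycolysis and pentose phosphate genes 15 were lower and 2 higher. LDHA, lactate dehydrogenase, stood at 1032, 1043, 1036 and 947 CPM in DMSO and at 308, 345 and 359.8 CPM in the combination, a log2 change of −1.59 (SE 0.06, edgeR adjusted p = 1.99e-12) from DMSO and −0.57 (SE 0.06, edgeR adjusted p = 8.35e-07) from MI-503. HK1, a hexokinase, went from 16.8 to 20.3 CPM in DMSO to 38.5, 30.4 and 33.8 CPM in the combination, a log2 change of 0.89 (SE 0.08, edgeR adjusted p = 6.47e-08) from DMSO and 0.96 (SE 0.08, edgeR adjusted p = 1.07e-07) from MI-503. Cholesterol genes were lower in 12 of 19 cases and higher in 3, and against MI-503 13 were lower and none higher. SQLE, squalene epoxidase, stood at 97.3, 109, 98.04 and 99.2 CPM in DMSO and at 73.5, 74.9 and 62.5 CPM in the combination, a log2 change of −0.52 (SE 0.06, edgeR adjusted p = 7.96e-07) from DMSO and −0.72 (SE 0.06, edgeR adjusted p = 6.01e-08) from MI-503. FDPS, farnesyl diphosphate synthase, changed by −0.58 (SE 0.05, edgeR adjusted p = 7.72e-09).

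Metal and heme genes held some of the steepest changes. Of 6 tested members of the metallothionein and zinc export group 5 were lower and 1 higher. MT2A, a metallothionein that binds zinc and copper, stood at 26.9, 19.8, 25.9 and 22.3 CPM in DMSO and at 2.69, 2.86 and 2.83 CPM in the combination, a log2 change of −3.10 (SE 0.14, edgeR adjusted p = 1.1e-11) from DMSO and −0.88 (SE 0.15, edgeR adjusted p = 0.000166) from MI-503. MT1G changed by −2.84 (SE 0.12, edgeR adjusted p = 4.69e-12) and MT1X by −1.80 (SE 0.09, edgeR adjusted p = 5.28e-11). SLC30A1, the zinc exporter of the plasma membrane, stood at 59.1, 58.2, 53.5 and 57.04 CPM in DMSO and at 71.98, 75.6 and 72.96 CPM in the combination, a log2 change of 0.37 (SE 0.05, edgeR adjusted p = 4.26e-06), in the opposite direction. Both kinds of gene are known targets of the zinc sensor MTF1. Its metal response element, here TGCNCNC on either strand, was found in all 4 promoters of the group given in RefSeq, 7 times in MT2A and once in SLC30A1, but also in 48.4% of all promoters. A window of MT2A and the one of SLC30A1 are shown, since these genes moved in opposite directions, with the element in capitals.
MT2A (chr16:56608518-56608548, plus strand): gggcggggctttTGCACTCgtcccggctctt
SLC30A1 (chr1:211579192-211579222, minus strand): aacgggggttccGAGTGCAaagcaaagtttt
Among 13 genes of heme and iron handling 6 were higher and 3 lower, against 31.7% and 32.8% of all genes tested. SLC48A1, which carries heme out of lysosomes, stood at 15.5, 14.5, 14.2 and 15.5 CPM in DMSO and at 72.95, 79.9 and 82.6 CPM in the combination, a log2 change of 2.39 (SE 0.06, edgeR adjusted p = 4.84e-14), and NCOA4, the receptor for autophagy of ferritin, changed by 0.40 (SE 0.06, edgeR adjusted p = 1.41e-05). TFRC, the transferrin receptor, stood at 295, 302, 280.1 and 294 CPM in DMSO and at 117, 175 and 200.2 CPM in the combination, a log2 change of −0.84 (SE 0.11, edgeR adjusted p = 5.62e-06), lowest in replicate 1.

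Interferon and NF-kB genes were mixed. Of 18 tested interferon-stimulated genes 10 were higher and 3 lower, against 31.7% and 32.8% of all genes tested. STAT2 stood at 42.2, 49.02, 46.6 and 44.6 CPM in DMSO and at 116, 142 and 122 CPM in the combination, a log2 change of 1.47 (SE 0.07, edgeR adjusted p = 4.31e-11), XAF1 changed by 0.83 (SE 0.05, edgeR adjusted p = 1.32e-10) and IFI44 by 3.07 (SE 0.22, edgeR adjusted p = 2.56e-09). IFIT1, a classical marker of interferon response, stood at 0.810, 0.965, 1.19 and 0.617 CPM in DMSO and at 0.449, 0.251 and 0.484 CPM in the combination, a change of −1.11 (edgeR adjusted p = 0.00457), and ISG15 was not called (−0.18, edgeR adjusted p = 0.0953). Against MI-503, STAT2 was higher by 0.93 (SE 0.07, edgeR adjusted p = 3.18e-08) and IFI44 by 3.47 (SE 0.23, edgeR adjusted p = 3.37e-09), and XAF1 was not called (edgeR adjusted p = 0.455). Of 10 NF-kB feedback and cytokine genes 5 were higher and 2 lower, against 31.7% and 32.8% of all genes tested. NFKB1 changed by −0.63 (SE 0.04, edgeR adjusted p = 2.36e-09) and ICAM1, an adhesion molecule, by 0.50 (SE 0.05, edgeR adjusted p = 2.43e-07), and IL1B, at 0.338, 0.459, 0.474 and 0.380 CPM in DMSO and at 0.401, 0.552 and 0.707 CPM in the combination, was not called (edgeR adjusted p = 0.295).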

How the data were processed

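Polyadenylated RNA of MOLM-13 cells was sequenced with a TruSeq RNA kit in 11 libraries, of which 4 of DMSO and 3 of MI-503 plus PR-957 were compared here. The authors deposited counts of read pairs (fragments) per gene, not normalized, made with Trimmomatic 0.39, STAR 2.7.10a and featureCounts 2.0.1 on hg38 with RefSeq genes per the submitters' processing notes and the file headers. Fragments were counted over exons without strand, those on several genes or places were left out, and the sources used here state no rule for the earlier filter on alignments. DESeq2 tables of the authors hold base means, fold changes, statistics and p-values and were not used.

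Counts of 38557 genes, 11740 of them without a count, were filtered with filterByExpr (minimum count 10), scaled by TMM and fitted in R 4.3.3 with edgeR 4.0.16 (glmQLFit and glmQLFTest, biological coefficient of variation 6.14%, 8 residual degrees of freedom), with 1 mean for each of DMSO, MI-503 and the combination. The SE is the absolute log2 change divided by the square root of F. P-values were adjusted by Benjamini-Hochberg over the genes tested. The steps were also run on simulated counts in which most genes did not change. Since 64.5% of genes were called here, that run cannot show how scaling or error rates behave in these data. Alternatives were other scaling factors, no filter and a stricter one, DESeq2 1.42.0, limma 3.58.1, each library left out, the replicate number as a block, thinned counts and a fit on DMSO and the combination only.

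The comparison, its gene lists and its named genes were chosen with earlier results of these data known. Named genes were, for each of 35 lists, preset members, the 3 with the smallest adjusted p and those with the largest rise and fall, and over all genes the 10 largest rises and falls without overlap at a mean of at least 5 CPM, genes on in 1 group alone, and those farthest apart in combination replicate 1. UBB, HSP90AB1, CX3CR1 and IRF8 were named after their values were seen, and PSMD3, PSMD12, ME1, CTSA, MCOLN1, ATP6V0D1 and PLK1 for their promoter windows. Some genes that the rule names and a promoter window are not reported here. Promoter sequences were those of RefSeq (GRCh38.p14), 27305 in all, 10694 of them of tested genes, and a gene without an entry was not searched.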

Additional observations from a re-analysis of the deposited data

Results flagged for a closer look

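For 187 named genes the 4 DMSO libraries were checked for a value far from the other 3, by a gap above Dixon's 95% critical value. This was met by 14 genes, and chance gives about 1 in 20 such groups. DMSO replicate 2 was the far library for ALDH1A3 at 42.9 CPM (others 27.8 to 29.0), BAG3 at 33.9 CPM (30.6 to 30.9), DUSP6 at 44.7 CPM (54.6 to 56.0), NPLOC4 at 125.6 CPM (140.0 to 142.2), S100A8 at 2.34 CPM (1.09 to 1.23), SQLE at 108.8 CPM (97.3 to 99.2) and TALDO1 at 261.8 CPM (277 to 279.8). In the same library SLC26A11 was at 0.184 CPM and CD3E at 0.0919 CPM, with 0 in the others. DMSO replicate 3 was far for CD14 at 0.427 CPM (0.184 to 0.203), HSPD1 at 799.9 CPM (855 to 863) and RBL2 at 121.9 CPM (128 to 129.6). DMSO replicate 1 was far for BID at 68.4 CPM (64.5 to 65.0), and DMSO replicate 4 for LDHA at 947 CPM (1032 to 1043).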

How the results depend on the processing

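Under 22 alternatives, called genes ran from 3935 to 5370 higher and from 3796 to 4845 lower than in DMSO. A stricter filter on low counts left 652 genes at least 2-fold higher and 223 lower, against 1254 and 490 in the main fit. No filter gave 1875 and 578. Calls of any size fell by a smaller share under the stricter filter, from 4650 to 3935 higher and from 4822 to 3796 lower. The number of 2-fold changes therefore rests more on genes of low count than the number of called genes does. Without 1 library at a time, 4295 to 4689 genes were called higher, 4534 to 4763 lower, 1192 to 1334 and 470 to 575 at least 2-fold higher and lower, and 6127 to 7268 between the combination and MI-503. No median of the 35 lists changed sign in 770 recomputed values. Of 164 named genes called against DMSO, 157 were called in the same direction under every alternative.

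No pairing of libraries by replicate number was seen, though with combination replicate 1 standing apart the correlations below could miss one. Deviations of same-numbered DMSO and combination libraries correlated at −0.02, 0.05 and 0.01, and 1 of 3 combination libraries correlated best with its own number. With the replicate number as a block, 4543 genes were called higher and 4769 lower. The settings that leave out combination replicate 1 and also add the block or DESeq2 were chosen after seeing the data, and called 4562 and 4366 genes higher and 4611 and 4422 lower. Direction turned in 6 named genes. With 1 library left out at a time, AXL ran from −0.16 (without combination replicate 1) to 0.73, IL21R from −0.34 (without the same library) to 0.56, KMT2A from −0.19 to 0.014 (without combination replicate 4) and HSPA5 from −0.033 (without combination replicate 4) to 0.065. Against MI-503, JMJD1C ran from −0.031 (without combination replicate 1) to 0.072 and TLR4 from −0.0084 (without combination replicate 4) to 0.25. Without combination replicate 1 and with the block or DESeq2, AXL was at −0.18 and −0.16, IL21R at −0.37 and −0.34 and JMJD1C at −0.059 and −0.017. HSPA5, AXL, KMT2A, JMJD1C and TLR4 were not called in those contrasts on either side, apart from KMT2A without combination replicate 1 and AXL without combination replicate 2 or 4 or without a filter. Without combination replicate 4, FCGR1A (−0.37), GABARAPL2 (−0.17), ISG15 (−0.24), PSMA3 (−0.13) and UBB (0.14) were called. DDI2 lost its call with upper-quartile factors (−0.10), SNORD3A with limma (1.36) and, against MI-503, BPI with DESeq2 (−0.52). The cause of these shifts was not tested. The precision of low genes such as SLC26A11, CYBB and NUPR1 is limited by counts, and in 3 combination libraries 1 library can set a value.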
